A study of Mus musculus with 10 samples.

Results

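The genes described here encode glutamate receptors and the postsynaptic density, the receiving side of the excitatory synapse. Some of the receptors are presynaptic or are also found in glia. The genes were read in the hippocampus of Dp5/Dp1 mice, a model of Down syndrome, and of their littermate controls. They are 37 genes chosen by name: AMPA, NMDA and metabotropic receptor subunits, AMPA receptor auxiliary proteins, postsynaptic scaffolds, both main subunits of CaMKII and a pair of neuroligins, with kainate receptors left out. Of these, 36 were measured by a probe set with a single gene symbol, among 19938 such genes on the array, and Grin1 was not analysed here. The rule that lists them is by name and role.

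Dp5/Dp1 mice carry the Dp5Yah and the Dp1Rhr duplications of mouse chromosome 16 together, which gives 3 copies of every gene inside them. The controls are wild type littermates without either duplication. Each group held 5 male mice aged 16 weeks, with total RNA of the whole hippocampus of both sides on 1 Affymetrix Mouse Gene 1.0 ST array per mouse. The labels give a C57BL/6N background for both groups, whereas the methods of the study name C57BL/6J. The titles of the mutant arrays name Dp5Yah first and the Dp5/Dp1 model in brackets, and those of the controls mark a renewed analysis. The same littermates also served single Dp5Yah and Dp1Rhr lines, which were not analysed here. The study asked how each duplicated segment bears on behaviour and on hippocampal gene expression.

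Glutamate released at an excitatory synapse opens AMPA receptors, which carry the fast current, and NMDA receptors, which let calcium in when the membrane is already depolarised. Calcium activates CaMKII, and scaffolds of the DLG, DLGAP, Shank and Homer families tie both receptors to metabotropic receptors and to the cytoskeleton of the spine. Hippocampal learning and long-term potentiation depend on this machinery.

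Levels are RMA log2 values, that is, normalized hybridisation signals on a log2 scale, and each difference was taken as Dp5/Dp1 minus control, with its standard error (SE). A gene was called when limma's p, adjusted over all 19938 genes by the Benjamini-Hochberg method, was below 0.05. By that rule 40 genes were higher and 1 was lower in Dp5/Dp1, and 3 of the higher ones and the lower one lay outside the duplicated intervals. Array medians lay between 6.733 and 6.796 and arrays correlated across genes at 0.996 to 0.999. Neither could readily show a deviating array, since RMA makes array medians similar and the correlation mostly follows the level of each gene. Markers of hippocampal neurons averaged 11.27 to 11.36 on Dp5/Dp1 arrays and 11.29 to 11.34 on control arrays. They include Camk2a, itself among the genes described here, so this check is not independent of them.

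No glutamate receptor or postsynaptic density gene was called. Of the 36 measured, 0 were called higher in Dp5/Dp1, beside 0.201% of all genes, and 0 lower, beside 0.00502%, or 0.206% in either direction. Across the 36 genes the log2 difference ran from -0.14 for Grin2c to 0.10 for Cacng3, which is 0.905-fold to 1.07-fold. Mean values were lower in Dp5/Dp1 for 31 genes, Homer3 by next to nothing, and higher for 5 (Gria4, Cacng2, Cacng3, Grm2 and Grm8). A higher mean was found for 51.5% of all genes. Genes with a lower mean made up 86.1% of the members, against 48.5% of all genes, and 51.4% once the dimmest 40% of genes, which held no member, were left out. The median difference was -0.04 over the members and 0.0019 over all genes. Since members share their arrays, they are not replicates of the genotype, and the 31 are given as a count only. In RNA of whole tissue, fewer cells of a type and less RNA per cell cannot be told apart.

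At an unadjusted p under 0.05 there were 3 members with a lower value in Dp5/Dp1 (Grm7, Grin2c and Shank2), beside 2.67% of all genes, and 0 with a higher value, beside 3.39%, or 6.06% in either direction. The rewritten FCROS method, a rank test on fold changes after the one used in the study, placed Grm7 and Grin2c in its lower tail, beside 2.21% of all genes, and 0 members in its upper tail, beside 2.84%. No member had all Dp5/Dp1 arrays below or above all control arrays, which held for 0.321% and 0.762% of all genes.

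The 95% intervals show the size of change that these arrays could miss. Each holds for its own gene and not jointly for all 36, so some may not cover the true difference. They reached from -0.26 (0.834-fold) at the lower end, for Grin2c, to 0.29 (1.23-fold) at the upper end, for Cacng3. For all 36 members the interval lay within 0.3 of 0 on the log2 scale, for 27 within 0.2 and for 8 within 0.1. A change of 1.5-fold, 0.585 on the log2 scale, was outside every one of them. The median SD within groups was 0.069 for the members and 0.070 for all genes.

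**Figure D1:**
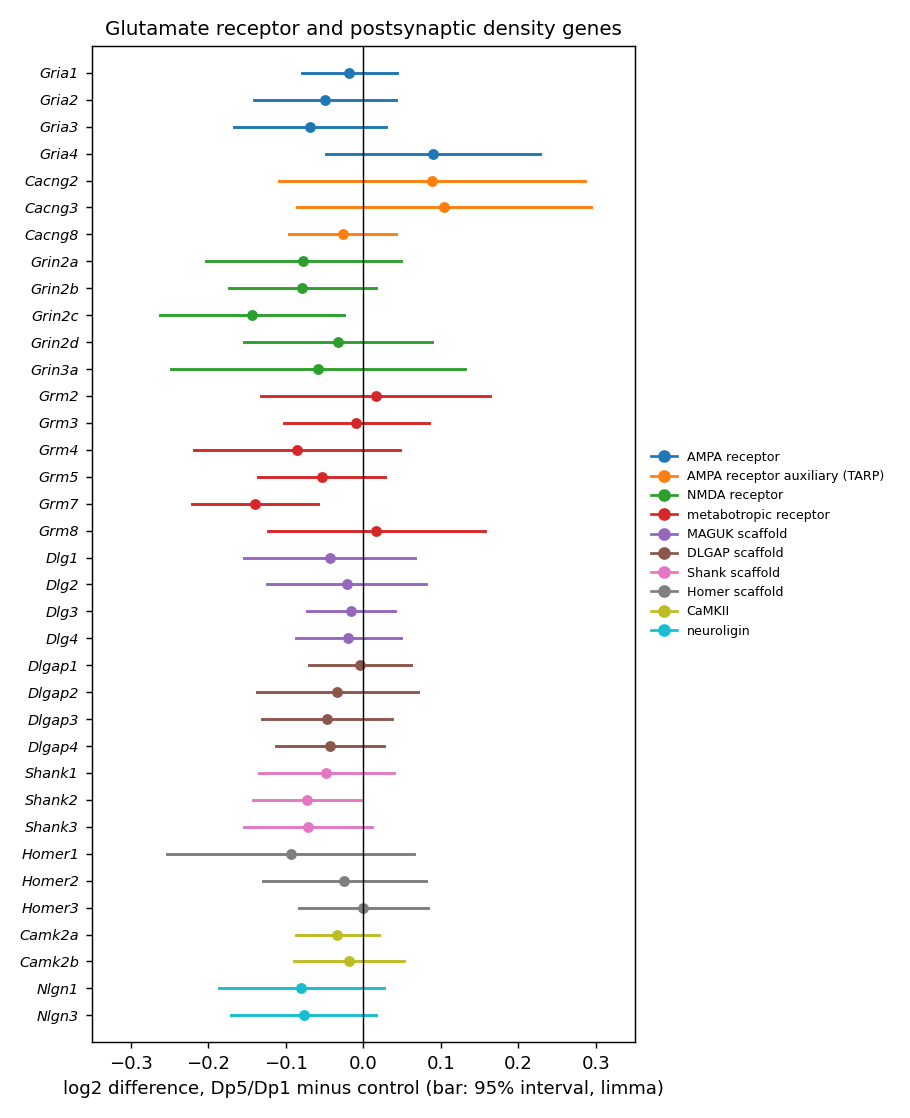
Log2 difference, Dp5/Dp1 minus control, of each of the 36 members (points, coloured by subfamily) with its 95% interval from limma (bars), 5 arrays per group. Points lie left of 0 for 31 genes, and the bars of Grin2c, Grm7 and Shank2 do not reach 0.

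None of the measured genes lay in a duplicated interval. By RefSeq positions on GRCm38, 2 members lie on chromosome 16, Grin2a at 9567901 to 9996083 and Dlg1 at 31663443 to 31873356. Both are proximal to the Dp5Yah interval, read here from Cyyr1 to Clic6 (85452858 to 92541241), and to the Dp1Rhr interval, read from Cbr1 to Fam3b (93607837 to 97504936). These bounds are ends of genes, not the breakpoints.

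Promoter windows are shown for Grm7 and Grin2c, the members with the lowest p, and for Cacng2, the member whose arrays differed most within a group. Each runs from 250 bases before to 50 after a RefSeq transcript start of GRCm38.p6 and is written on the strand of the gene. Capitals mark the GC box GGGCGG or its complement, the core of SP1 sites.
Grm7 (chr6:110645262-110645561, plus strand): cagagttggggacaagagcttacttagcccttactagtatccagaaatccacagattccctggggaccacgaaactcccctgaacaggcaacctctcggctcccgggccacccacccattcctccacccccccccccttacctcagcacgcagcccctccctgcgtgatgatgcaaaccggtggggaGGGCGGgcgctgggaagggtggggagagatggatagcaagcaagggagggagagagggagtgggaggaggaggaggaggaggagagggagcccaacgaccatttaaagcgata
Grin2c (chr11:115267194-115267493, minus strand): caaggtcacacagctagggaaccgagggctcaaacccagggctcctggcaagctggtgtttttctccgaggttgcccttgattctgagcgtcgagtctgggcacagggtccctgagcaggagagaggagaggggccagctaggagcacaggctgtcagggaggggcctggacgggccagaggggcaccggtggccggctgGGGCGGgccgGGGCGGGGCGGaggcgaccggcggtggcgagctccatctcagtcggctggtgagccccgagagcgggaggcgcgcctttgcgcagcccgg
Cacng2 (chr15:78119231-78119530, minus strand): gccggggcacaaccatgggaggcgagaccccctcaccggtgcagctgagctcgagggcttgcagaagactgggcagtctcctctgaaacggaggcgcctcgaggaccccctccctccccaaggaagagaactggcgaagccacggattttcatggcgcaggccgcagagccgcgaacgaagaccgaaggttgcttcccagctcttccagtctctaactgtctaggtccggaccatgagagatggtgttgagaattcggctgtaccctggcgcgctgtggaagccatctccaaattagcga

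The Grm7 window held 1 GC box and the Grin2c window 3, the last of which overlaps the one before it by 1 base, whereas that of Cacng2 held 0. Windows were listed for 24 of the 36 members. Searched on both strands, the GC box was in 15 of their 39 windows (38.5%), beside 35.7% of all 32851 windows. Counted by gene, with any window, it was in 13 of the 24 (54.2%), beside 38.2% of all genes listed. Members had more windows per gene (39 for 24 genes) than all genes listed (32851 for 27025), which by itself raises the share by gene. The CRE TGACGTCA, the palindrome bound by CREB, was in 0 of the 39, beside 1.79% of all windows. These counts describe letters in the windows and say nothing of whether a factor binds there.

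The NMDA receptor genes all had lower means in Dp5/Dp1, 5 of the 5 measured, with differences of -0.14 to -0.03. Grin2c encodes the GluN2C subunit, best known from cerebellar granule cells and glia (chromosome 11, 115249169 to 115267297). Its values were 7.91, 8.16, 8.12, 8.08 and 7.90 on Dp5/Dp1 arrays, against 8.25, 8.20, 8.13, 8.14 and 8.16 on control arrays. Dp5/Dp1 replicates 1 and 5 lay apart at the bottom, and the other three reached into or close to the control range. The means were 8.03 ± 0.12 in Dp5/Dp1 and 8.18 ± 0.05 in controls (SD, n = 5 each). The difference of -0.14 ± 0.05 had an unadjusted p = 0.0218 and an adjusted p = 0.806 in limma. Its unadjusted limma p was 0.0540 without control replicate 1, 0.0579 without Dp5/Dp1 replicate 1 and 0.0567 without Dp5/Dp1 replicate 5, where the difference was -0.12, -0.11 and -0.11.

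Grin2b encodes GluN2B, the subunit that dominates in young neurons and persists in the hippocampus. It measured 11.88, 12.04, 11.88, 12.02 and 11.88 on Dp5/Dp1 arrays, against 12.06, 12.09, 11.96, 11.97 and 12.01 on control arrays. Dp5/Dp1 replicates 1, 3 and 5 lay below every control, and replicates 2 and 4 among the controls. The difference was -0.08 ± 0.04 (adjusted p = 0.832, limma). Grin2a, which encodes the GluN2A subunit that takes over as synapses mature, measured 11.79, 11.96, 11.84, 11.91 and 11.94 on Dp5/Dp1 arrays, against 12.10, 11.97, 11.77, 11.99 and 11.98 on control arrays. Control replicate 3 was the lowest of all 10, so the groups overlapped, and the difference was -0.08 ± 0.06 (adjusted p = 0.870, limma). It was -0.13 without control replicate 3 and -0.04 without control replicate 1. Grin2d, a subunit of interneurons, differed by -0.03 ± 0.06 and Grin3a, a subunit that lowers calcium entry, by -0.06 ± 0.09.

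Thalamic and astrocytic tissue also expresses Grin2c, so its arrays were set beside markers of both. The mean of the 10 thalamus markers ran from 8.10 to 8.41 on Dp5/Dp1 arrays and from 8.31 to 8.87 on control arrays. The highest value, in control replicate 1, stood on the array with the highest Grin2c. In contrast, Dp5/Dp1 replicate 5 had the highest thalamus mean of its group (8.41) and the lowest Grin2c of all 10 arrays (7.90). Astrocyte markers averaged 10.94 ± 0.04 in Dp5/Dp1 and 10.97 ± 0.06 in controls (SD, n = 5 each). The part of either in the Grin2c values was not tested.

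Among the metabotropic receptors, which act through G proteins, 4 of the 6 measured had lower means in Dp5/Dp1. Grm7 encodes mGlu7, a receptor of presynaptic terminals that restrains transmitter release (chromosome 6, 110645349 to 111567230). Its values were 9.50, 9.60, 9.54, 9.69 and 9.56 on Dp5/Dp1 arrays, against 9.76, 9.68, 9.72, 9.70 and 9.72 on control arrays. Only Dp5/Dp1 replicate 4 reached the controls, just above control replicate 2, and the other four lay below all of them. The means were 9.58 ± 0.07 in Dp5/Dp1 and 9.72 ± 0.03 in controls (SD, n = 5 each). The difference of -0.14 ± 0.04 (0.908-fold, 95% interval -0.22 to -0.06) had an unadjusted p = 0.00283, the 115th lowest of all genes, and an adjusted p = 0.491 in limma. Leaving out each array in turn gave -0.17 to -0.12 with unadjusted p of 0.000299 to 0.00851.

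The other metabotropic receptors differed less. Grm5, the main mGluR of hippocampal spines that couples to calcium release and binds Homer, differed by -0.05 ± 0.04. Grm4, a presynaptic relative of Grm7, differed by -0.08 ± 0.06. The autoreceptor gene Grm2 (0.02 ± 0.07), Grm3, expressed in astrocytes and neurons (-0.01 ± 0.04), and Grm8, a further presynaptic receptor (0.02 ± 0.06), lay close to 0. Their adjusted p in limma lay at 0.864 or above.

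**Figure D2:**
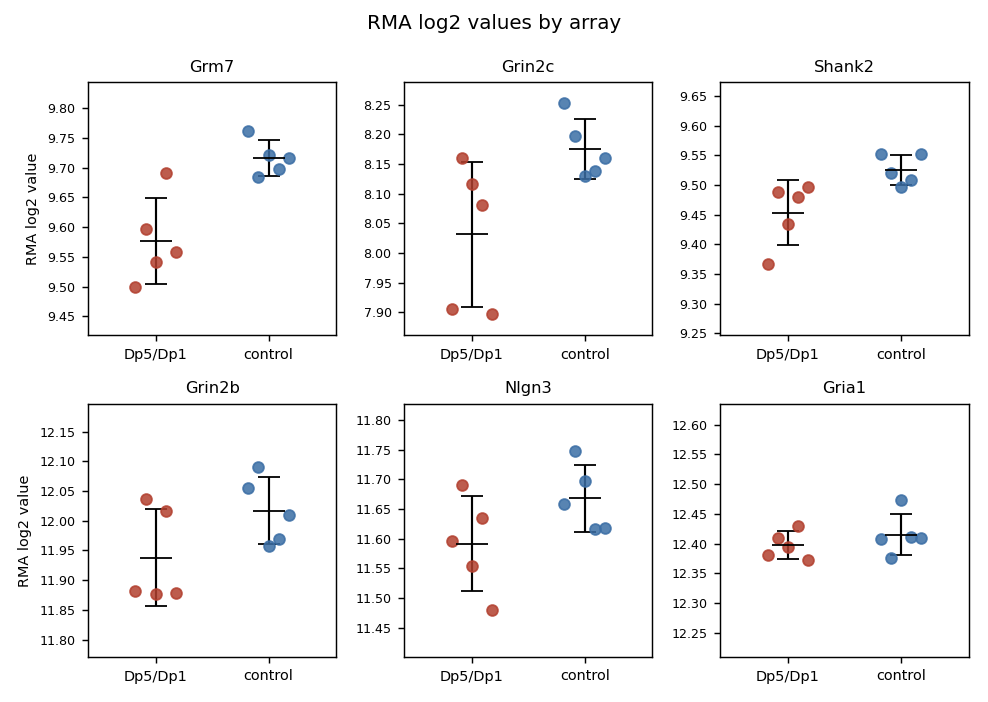
RMA log2 values of 6 members by array (points), Dp5/Dp1 left and control right in each panel, with mean and SD (bars), n = 5 each; the vertical axes differ in position. For Grm7 a single Dp5/Dp1 array reaches the controls, whereas for Gria1 most arrays of both groups lie in a shared range.

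Of the AMPA receptor genes, 3 had a lower and 1 a higher mean in Dp5/Dp1, and a difference between subunits was not tested. Gria1, which encodes the GluA1 subunit added to synapses in long-term potentiation, measured 12.38, 12.41, 12.39, 12.43 and 12.37 on Dp5/Dp1 arrays, against 12.41, 12.38, 12.47, 12.41 and 12.41 on control arrays. All values lay within a narrow band and the groups overlapped, with a difference of -0.02 ± 0.03 (adjusted p = 0.942, limma). Its 95% interval was -0.08 to 0.04. Gria2, whose edited GluA2 subunit keeps calcium out of the channel, measured 11.91, 11.97, 11.93, 12.12 and 11.96 on Dp5/Dp1 arrays, against 12.01, 11.99, 12.07, 11.98 and 12.08 on control arrays. Dp5/Dp1 replicate 4 was the highest of all 10 and the other 4 were below every control. The difference was -0.05 ± 0.04 (adjusted p = 0.885, limma). With each array left out in turn it ran from -0.08, without Dp5/Dp1 replicate 4, to -0.03, without Dp5/Dp1 replicate 1. The unadjusted limma p ran from 0.0288 to 0.474.

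Gria3, an X-linked subunit gene, also had a lower mean in Dp5/Dp1. It measured 11.44, 11.55, 11.41, 11.59 and 11.40 on Dp5/Dp1 arrays, against 11.50, 11.63, 11.54, 11.49 and 11.57 on control arrays. Dp5/Dp1 replicates 1, 3 and 5 lay below all controls, and the difference was -0.07 ± 0.05 (adjusted p = 0.852, limma). Gria4, which encodes the GluA4 subunit of interneurons, had a higher mean in Dp5/Dp1. It measured 9.39, 9.45, 9.27, 9.55 and 9.28 on Dp5/Dp1 arrays, against 9.24, 9.39, 9.42, 9.18 and 9.26 on control arrays. The groups overlapped, with a difference of 0.09 ± 0.06 (adjusted p = 0.864, limma).

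The auxiliary TARP proteins bring AMPA receptors to the synapse and slow their closing. Cacng3, which encodes gamma-3, measured 11.81, 11.60, 11.50, 11.54 and 11.39 on Dp5/Dp1 arrays, against 11.27, 11.69, 11.53, 11.34 and 11.49 on control arrays. Cacng2, which encodes stargazin, measured 10.88, 10.76, 10.60, 10.69 and 10.66 on Dp5/Dp1 arrays, against 10.39, 10.96, 10.55, 10.62 and 10.62 on control arrays. Both genes spread widely within each group and the groups overlapped. The difference was 0.10 ± 0.09 for Cacng3 (adjusted p = 0.881, limma) and 0.09 ± 0.09 for Cacng2 (adjusted p = 0.901, limma). That of Cacng3 was 0.04 without Dp5/Dp1 replicate 1, 0.06 without control replicate 1 and 0.16 without control replicate 2. Cacng8, which encodes the gamma-8 TARP typical of the hippocampus, spread far less and differed by -0.03 ± 0.03.

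The dissections differed in choroid plexus, the tissue of the ventricle next to the hippocampus, and these values stand beside the AMPA receptor genes that varied most. Of 16 choroid plexus markers, 14 were measured, all 14 with a lower mean in Dp5/Dp1 and 0 with an unadjusted p under 0.05. Their mean was 6.79, 7.07, 7.99, 6.79 and 8.27 on Dp5/Dp1 arrays, against 8.66, 6.68, 6.81, 8.48 and 8.02 on control arrays. The arrays fell into a low set of 3 Dp5/Dp1 and 2 control arrays and a high set of 2 Dp5/Dp1 and 3 control arrays. All arrays of the low set had higher Cacng3 (11.53 to 11.81) than any of the high set (11.27 to 11.50). The same held for Gria4, at 9.39 to 9.55 on the low set and 9.18 to 9.28 on the high set. Dlg4, which spread little, separated as well but barely, at 12.2876 to 12.377 on the low set and 12.2431 to 12.2874 on the high set. How many of all genes separate in this way was not counted.

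With the choroid plexus mean in the fit, the difference of Gria4 was 0.05 ± 0.04 and that of Cacng3 was 0.05 ± 0.05, each with a smaller SE than without it. That of Cacng2 was 0.04 ± 0.07. Those of Grm7 (-0.14 ± 0.04) and Grin2c (-0.14 ± 0.06) hardly moved, and Shank2 was at -0.07 ± 0.03 with an unadjusted p of 0.0722.

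**Figure D3:**
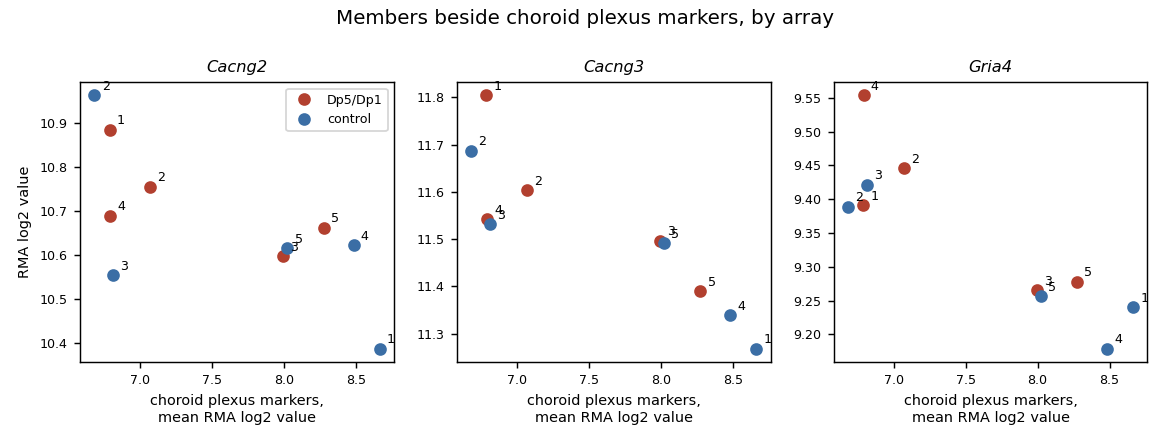
RMA log2 values of Cacng2, Cacng3 and Gria4 on each array against the mean of 14 choroid plexus markers on the same array, Dp5/Dp1 and control in different colours, with replicate numbers beside the points. The arrays form a low and a high set along the horizontal axis, each with arrays of both groups, and Cacng3 and Gria4 are higher on every array of the low set.

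Medial habenula markers were high on Dp5/Dp1 replicates 2 and 5. The mean of the 10 was 6.99, 8.11, 7.12, 6.92 and 7.603 on Dp5/Dp1 arrays, against 6.95, 6.98, 7.31, 6.89 and 6.88 on control arrays. Without those 2 arrays, Grm7 differed by -0.14 ± 0.05 (unadjusted p = 0.0138), Grin2c by -0.14 ± 0.05 (unadjusted p = 0.0247) and Shank2 by -0.10 ± 0.04 (unadjusted p = 0.0238). No member was called with them left out, and 28 members then had a lower mean in Dp5/Dp1.

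Markers of other cells and tissues gave 0 called genes in each of 12 lists and in the check of hippocampal neurons. By means, 9 of the 10 medial habenula markers were higher in Dp5/Dp1 and 1 was lower, with a median difference of 0.30. Of the 10 thalamus markers, 8 were lower and 2 higher, with a median of -0.21. At an unadjusted p under 0.05, 3.39% of all genes were higher and 2.67% lower. Beside that there was 1 higher medial habenula marker of 10, and 2 lower thalamus markers of 10. Granule cells of the dentate gyrus had 1 higher and 1 lower marker of 7, interneurons 2 higher of 8 and astrocytes 1 lower of 6. CA1 (5 markers measured) and CA3 (6) pyramidal cells, cortex (6), striatum (4), oligodendrocytes (5) and microglia (6) had 0.

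The membrane-associated guanylate kinases of the DLG family form the core of the density and hold NMDA receptors. Dlg4, which encodes PSD-95, measured 12.29, 12.33, 12.28, 12.29 and 12.24 on Dp5/Dp1 arrays, against 12.26, 12.38, 12.32, 12.29 and 12.27 on control arrays. Dp5/Dp1 and control arrays intermixed, with a difference of -0.02 ± 0.03 (adjusted p = 0.944, limma) and a 95% interval of -0.09 to 0.05. By choroid plexus level the arrays separated barely, as given above. Dlg1, which encodes SAP97 and lies on chromosome 16, measured 10.38, 10.58, 10.35, 10.42 and 10.37 on Dp5/Dp1 arrays, against 10.43, 10.52, 10.35, 10.47 and 10.55 on control arrays. Dp5/Dp1 replicate 2 was the highest of all 10, and the difference was -0.04 ± 0.05 (adjusted p = 0.913, limma). Dlg2, which encodes PSD-93, differed by -0.02 ± 0.05 and Dlg3, which encodes SAP102, by -0.02 ± 0.03.

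DLGAP proteins link PSD-95 to the Shank layer beneath. Dlgap4 measured 10.36, 10.35, 10.31, 10.30 and 10.30 on Dp5/Dp1 arrays, against 10.35, 10.46, 10.37, 10.35 and 10.32 on control arrays. Dp5/Dp1 replicates 3, 4 and 5 lay below all controls, and the difference was -0.04 ± 0.03 (adjusted p = 0.870, limma). Dlgap1, Dlgap2 and Dlgap3 differed by -0.0041 to -0.05.

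The Shank genes, whose proteins are the master scaffolds joining receptors to actin, had lower means in all 3 cases. Shank2 (chromosome 7, 143978077 to 144426043) measured 9.37, 9.49, 9.43, 9.48 and 9.50 on Dp5/Dp1 arrays, against 9.55, 9.52, 9.50, 9.51 and 9.55 on control arrays. The groups met at Dp5/Dp1 replicate 5 and control replicate 3, and the other Dp5/Dp1 arrays lay below every control. The means were 9.45 ± 0.05 in Dp5/Dp1 and 9.53 ± 0.03 in controls (SD, n = 5 each). The difference of -0.07 ± 0.03 had an unadjusted p = 0.0439 and an adjusted p = 0.818 in limma. With each array left out in turn it ran from -0.08 to -0.05, with unadjusted p of 0.0330 to 0.112, under 0.05 only without control replicate 3 or Dp5/Dp1 replicate 2, 4 or 5. A pair of dimmer Shank2 probe sets gave -0.11 ± 0.11 and -0.21 ± 0.13, with unadjusted p of 0.324 and 0.138, and the mean of all 3 probe sets gave -0.13, with an unadjusted p of 0.126. Shank3, the gene of Phelan-McDermid syndrome, differed by -0.07 ± 0.04 and Shank1 by -0.05 ± 0.04.

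Homer proteins couple group I metabotropic receptors to Shank and to calcium stores. Homer1, whose short form is induced by activity, measured 9.98, 10.17, 10.19, 10.29 and 10.38 on Dp5/Dp1 arrays, against 10.19, 10.16, 10.39, 10.37 and 10.36 on control arrays. Dp5/Dp1 replicate 1 lay lowest by far and the rest overlapped, with a difference of -0.09 ± 0.07 (adjusted p = 0.875, limma) that was -0.04 without that array. The probe set read here does not separate the forms. Homer2 differed by -0.02 ± 0.05, and Homer3 had equal means of 9.05 in Dp5/Dp1 and 9.05 in controls.

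Camk2a encodes the alpha subunit of CaMKII, the kinase that triggers long-term potentiation. It measured 13.48, 13.51, 13.48, 13.52 and 13.49 on Dp5/Dp1 arrays, against 13.53, 13.55, 13.51, 13.53 and 13.53 on control arrays. Dp5/Dp1 replicates 2 and 4 reached the lowest control, replicate 3, and the means were 13.50 ± 0.02 in Dp5/Dp1 and 13.53 ± 0.01 in controls (SD, n = 5 each). The difference was -0.03 ± 0.02 (adjusted p = 0.869, limma), and the beta subunit gene Camk2b differed by -0.02 ± 0.03.

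Neuroligins reach across the cleft to presynaptic neurexins. Nlgn3, a gene of X-linked autism, measured 11.60, 11.69, 11.55, 11.64 and 11.48 on Dp5/Dp1 arrays, against 11.66, 11.75, 11.70, 11.62 and 11.62 on control arrays. Dp5/Dp1 replicates 1, 3 and 5 lay below all controls, with a difference of -0.08 ± 0.04 (adjusted p = 0.836, limma). Nlgn1, the neuroligin of excitatory synapses, differed by -0.08 ± 0.05.

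The same Dp5/Dp1 arrays were low for many members. Set against the control mean of each gene, 27, 17, 26, 22 and 29 of the 36 members were lower on Dp5/Dp1 replicates 1 to 5, against 22, 10, 18, 26 and 21 on control replicates 1 to 5. Dp5/Dp1 replicate 5 was the lowest of all 10 arrays for 14 members and Dp5/Dp1 replicate 1 for 11, and control replicate 2 was the highest for 12. The mean over all members was 10.56, 10.63, 10.57, 10.62 and 10.54 on Dp5/Dp1 arrays, against 10.60, 10.66, 10.62, 10.60 and 10.61 on control arrays. Dp5/Dp1 replicates 1, 3 and 5 lay below the controls and replicates 2 and 4 among them, and the difference of the means was -0.04 ± 0.02. Choroid plexus markers were low on Dp5/Dp1 replicate 1 and high on replicates 3 and 5, and habenula markers were high on replicate 5 and within the control range on replicates 1 and 3.

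**Figure D4:**
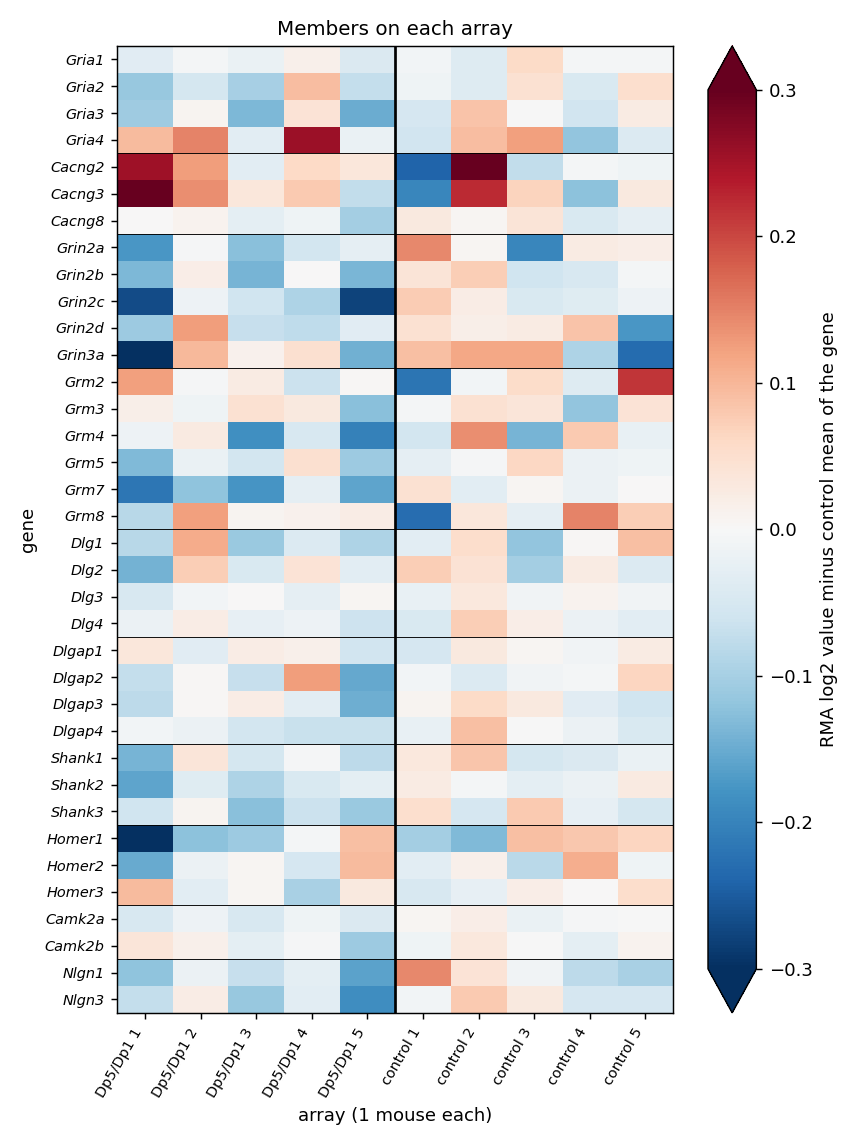
RMA log2 value of each member on each array minus the control mean of that gene (colour scale, blue below and red above), Dp5/Dp1 arrays left of the black line and control arrays right of it, rows grouped by subfamily. Blue prevails on Dp5/Dp1 replicates 1, 3 and 5, while Cacng2 and Cacng3 are strongly red on Dp5/Dp1 replicate 1 and control replicate 2.

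By subfamily, means over the members on each array overlapped between the groups in all 10 cases. The differences were -0.08 ± 0.05 for NMDA receptors, -0.08 ± 0.04 for neuroligins, -0.06 ± 0.02 for Shank scaffolds and -0.04 ± 0.03 for metabotropic receptors. Homer scaffolds were at -0.04 ± 0.04, DLGAP scaffolds at -0.03 ± 0.02, CaMKII at -0.03 ± 0.02, MAGUK scaffolds at -0.02 ± 0.03 and AMPA receptors at -0.01 ± 0.04. TARPs alone had a higher mean, by 0.06 ± 0.07, and the median of the differences of its 3 genes was 0.09. These are descriptions without a test.

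**Figure D5:**
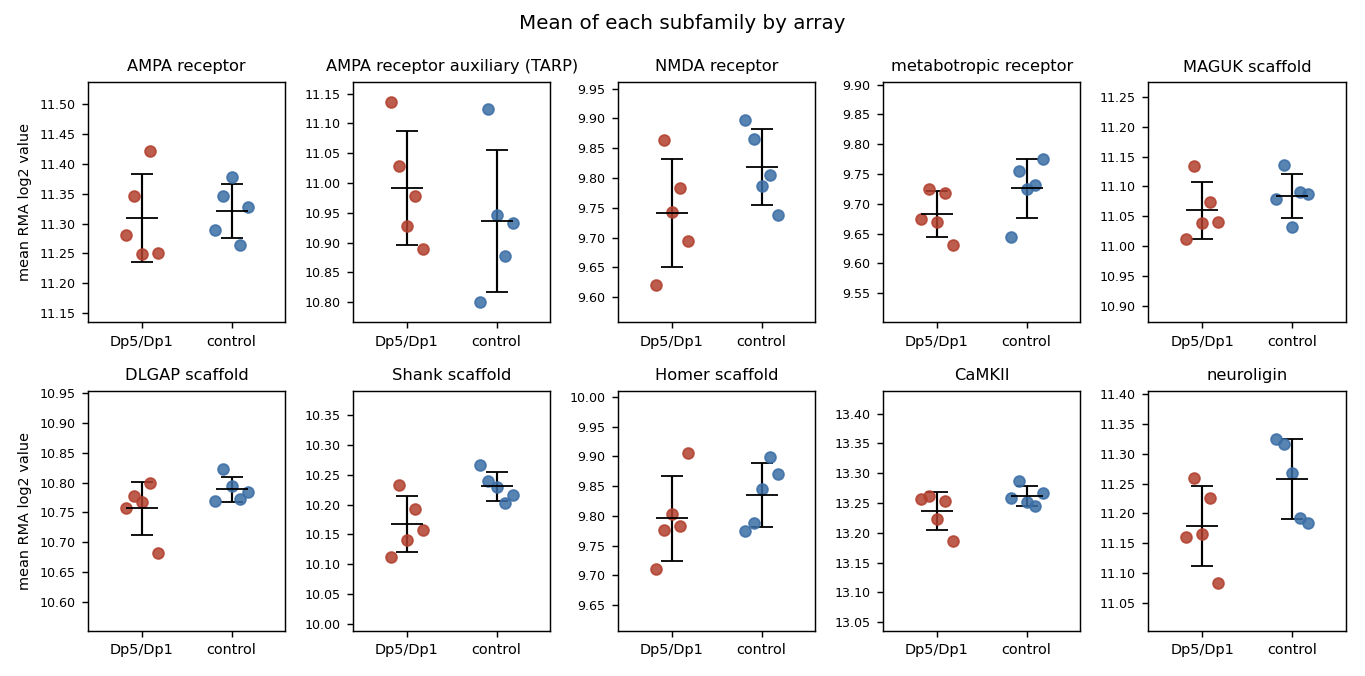
Mean RMA log2 value over the members of each subfamily on each array (points), Dp5/Dp1 left and control right, with mean and SD over arrays (bars), n = 5 each; the axes differ in position but span the same length. The groups overlap in all 10 panels.

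Other genes of the excitatory synapse, 55 measured of 61 listed, also held no called gene. Of them, 32 had a lower and 23 a higher mean in Dp5/Dp1, with a median difference of -0.01. The lower means made up 58.2%, beside 48.5% of all genes. At an unadjusted p under 0.05, 6 were lower, beside 2.67% of all genes, and 1 was higher, beside 3.39%. All Dp5/Dp1 arrays lay below all control arrays for 2 of the 55, beside 0.321% of all genes.

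Among 12 further AMPA receptor partners, 8 had higher and 4 lower means. Cnih3, a cornichon that slows AMPA receptor closing, averaged 9.995 ± 0.05 in Dp5/Dp1 and 10.14 ± 0.04 in controls (SD, n = 5 each), and no Dp5/Dp1 array reached the lowest control. Its difference of -0.15 ± 0.03 had an unadjusted p = 0.000948 and an adjusted p = 0.282 in limma. Shisa6, which keeps AMPA receptors in place at the density, differed by -0.08 ± 0.03 (adjusted p = 0.806, limma).

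Of 28 further postsynaptic density and spine genes, 19 had a lower mean. Kalrn, a spine exchange factor that also lies on chromosome 16 outside both intervals (33969073 to 34573277), differed by -0.08 ± 0.03 (adjusted p = 0.821, limma). Ppp1r9b, which encodes spinophilin, differed by -0.07 ± 0.03 (adjusted p = 0.823, limma).

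Of 7 further genes of metabotropic signalling, 4 had a lower mean. Plcb4, a phospholipase C of this pathway, averaged 9.03 ± 0.03 in Dp5/Dp1 and 9.24 ± 0.16 in controls (SD, n = 5 each), a difference of -0.21 ± 0.07 (adjusted p = 0.698, limma). Plcb4 is strongly expressed in thalamus, whose markers were highest in control replicate 1, and their part in this value was not tested. Grm6, the receptor of retinal bipolar cells and among the dimmest 40% of genes here, averaged 5.78 ± 0.06 in Dp5/Dp1 and 5.69 ± 0.04 in controls (SD, n = 5 each). Its difference of 0.08 ± 0.03 had an unadjusted p = 0.0342 and an adjusted p = 0.809 in limma.

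Of 8 genes of glutamate release and clearance, 5 had a lower mean. Slc1a2, the main glutamate transporter of astrocytes, averaged 12.88 ± 0.03 in Dp5/Dp1 and 12.95 ± 0.02 in controls (SD, n = 5 each), and here too no Dp5/Dp1 array reached the lowest control. Its difference was -0.07 ± 0.03 (adjusted p = 0.806, limma). Slc1a1, a neuronal glutamate transporter, differed by -0.04 ± 0.03 (adjusted p = 0.876, limma).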

How the data were processed

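The authors normalized Affymetrix Mouse Gene 1.0 ST arrays by RMA and deposited log2 values per probe set, which compress differences of dim probe sets. Targets were made from 200 ng of RNA per the labels, whereas the methods give less. Besides RMA, the submitters' processing notes list limma and the mm10 build, and the versions of RMA and limma are not given in the sources used here. Of 35556 probe sets, 21789 carried 1 gene symbol and were used, 1621 carried several and 12146 were unnamed here. For the 999 genes with more than 1, the brightest on average was taken, leaving 19938 genes. Positions and promoter windows came from RefSeq tables of GRCm38.

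Groups followed the labels, with 5 Dp5/Dp1 and 5 control arrays. limma 3.58.1 in R 4.3.3 was fitted on all genes (lmFit, eBayes, two-sided, Benjamini-Hochberg, threshold 0.05), after a check on simulated data. FCROS was rewritten from its description and may differ from the published package (25 array pairs, trim 0.25, tails of 0.025). The numbers of arrays limit the precision. No pair of arrays held identical values.

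The members and the lists were chosen with earlier results of these data known. Array values are given for members with an unadjusted p under 0.05, for the lowest p in each other subfamily, and for Grin2a, Grin2b, Gria1, Gria2, Dlg4 and Camk2a, and of each list of other synaptic genes up to 2 with the lowest p are named. Array values of Gria4 and Cacng2 were added after they were seen. Alternatives covered filtering, normalization, centring, probe sets, variance models, array weights, marker covariates, the replicate block and each array left out.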

Additional observations from a re-analysis of the deposited data

Results flagged for a closer look

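In 94 checks of single arrays against the other four of their group, 3 values stood apart by Dixon's criterion, which chance meets in about 5% of groups. Grin2d was low on control replicate 5, at 7.76, with the other control arrays between 7.95 and 8.02. Grm5 was high on control replicate 3, at 12.20, with the others between 12.11 and 12.13. The mean over all members was high on control replicate 2, at 10.66, with the others between 10.60 and 10.62.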

How the results depend on the processing

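No member was called by limma under any alternative, including an adjusted p under 0.1, and the rewritten FCROS method placed 2 lower. With an array left out, members lower at an unadjusted p under 0.05 numbered 1 (without control replicate 1 or Dp5/Dp1 replicate 1) to 6 (without Dp5/Dp1 replicate 2; 5 without Dp5/Dp1 replicate 4), against 3 with all arrays, and higher members 0 to 1 (without control replicate 2). Members with a lower mean numbered 28 to 33, and the median difference ran from -0.05 to -0.03. The AMPA receptor mean difference turned to 0.0038 without Dp5/Dp1 replicate 3. Deviations of arrays with the same replicate number correlated at -0.27, 0.29, -0.01, -0.35 and -0.06. These few values showed no clear pairing by replicate number, but they cannot settle whether arrays were paired. With the replicate block, 2 members were lower at an unadjusted p under 0.05, and limma gave 0.0118 for Grm7, 0.0369 for Grin2c and 0.0750 for Shank2. There were likewise 2 without the dimmest 40% of genes, with renewed quantile normalization, with the mean of probe sets and with the intensity trend, where Shank2 stood at 0.0627, 0.0521, 0.126 and 0.0820. Either marker covariate, or both, gave 4 such members and a median of -0.04, -0.05 and -0.06 for choroid plexus, habenula and both. Grm7 and Grin2c were among them each time. The others were Gria3 and Nlgn3 for choroid plexus, Shank2 and Shank3 for habenula, and Shank3 and Nlgn3 for both.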
